A study of Drosophila melanogaster with 2 samples.

Results

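Binding of the repressor Capicua was described at 10 genes that drive or restrain the cell division cycle: E2f1, E2f2, Dp, Rbf, dap, dup, CycA, CycB, CycD and fzy. They were taken by symbol from the annotation of 13945 protein-coding genes on the 6 main chromosome arms of the dm6 build of the Drosophila melanogaster genome. A gene was counted as bound where the summit of a peak lay in its body or within 1000 bp of any of its transcription start sites. Of 7152 reproducible summits in the series, 14 lay at these genes. The material was chromatin of whole adult flies of a transgenic line, strain cic-GFP, in which GFP is fused to the C-terminus of Capicua, and an antibody against GFP was used for the precipitation. Males and females were pooled and the age is given as unknown. The single group has biological replicates 1 and 3, and there was no second genotype, stage or treatment, so no comparison between conditions could be made. The labels do not say whether each replicate came from separately raised flies, and the differences between them could be technical in part. In whole animals, binding in few cells and weak binding in many cells cannot be told apart.

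Capicua is an HMG-box repressor that holds genes silent until receptor tyrosine kinase signalling through Ras and MAPK relieves it, and it is known to restrain proliferation in several fly tissues. E2F factors pair with Dp to switch on genes for DNA synthesis, Rbf, the retinoblastoma protein of the fly, binds E2F and holds it back, and cyclins with their kinases release that hold. Most cells of an adult fly no longer divide, with stem cells of the gonads and gut among those that do.

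Capicua-GFP bound E2f1, Dp, dup, dap and fzy, and no reproducible summit lay at E2f2, Rbf, CycA, CycB or CycD. The 5 of 10 bound stand beside 4570 of 13945 protein-coding genes, or 32.8%, bound by the same rule. By starts alone, with the gene body left out, the same 5 were bound, beside 30.5% of all genes. By role, the bound genes of this set are 1 activator, its partner, 1 kinase inhibitor, 1 replication factor and 1 activator of cyclin destruction, and no cyclin. The set holds too few cyclins to set their share apart from the background. The fzy summit and the stronger dup summit lay nearer to the starts of other genes, cni and SRPK. The median span of the 10 genes was 4153 bp, against 2166 bp over all genes, and a longer gene offers more room for a summit. Of the 14 summits, 11 lay within 1000 bp of a start of the gene itself, or 78.6%, beside 70.8% of the 8810 pairs of a gene and a summit that the same rule gives over all genes. Within 200 bp lay 10 of 14, or 71.4%, beside 38.8% of those pairs. The rule itself favours summits near starts, and 14 summits at 5 genes give no test.

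Peak strength is given as the authors' score, a number with no fixed range that runs from 116 to 3067 over the reproducible list, with a median of 180. The 14 summits scored from 119 to 516, with a median of 158, and 6 of them lay above the series median. The order by strongest pooled score was E2f1, Dp, dup, fzy, dap, CycB, Rbf, E2f2, CycA and CycD. The last 5 come from the relaxed list, which holds 30000 candidate peaks of both replicates together, reproducible or not. Each of the 10 genes had a relaxed entry, and 69.3% of all genes had one, so such an entry says little on its own. Between neighbours in the order, the replicate scores overlapped for E2f1 and Dp, for fzy and dap, for CycB and Rbf, for E2f2 and CycA, and for CycA and CycD. They did not overlap between Dp and dup, dup and fzy, dap and CycB, or Rbf and E2f2, with 2 replicates a gene and no test. For CycD, the replicate 1 score is from a peak that does not overlap the pooled entry.

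**Figure D1:**
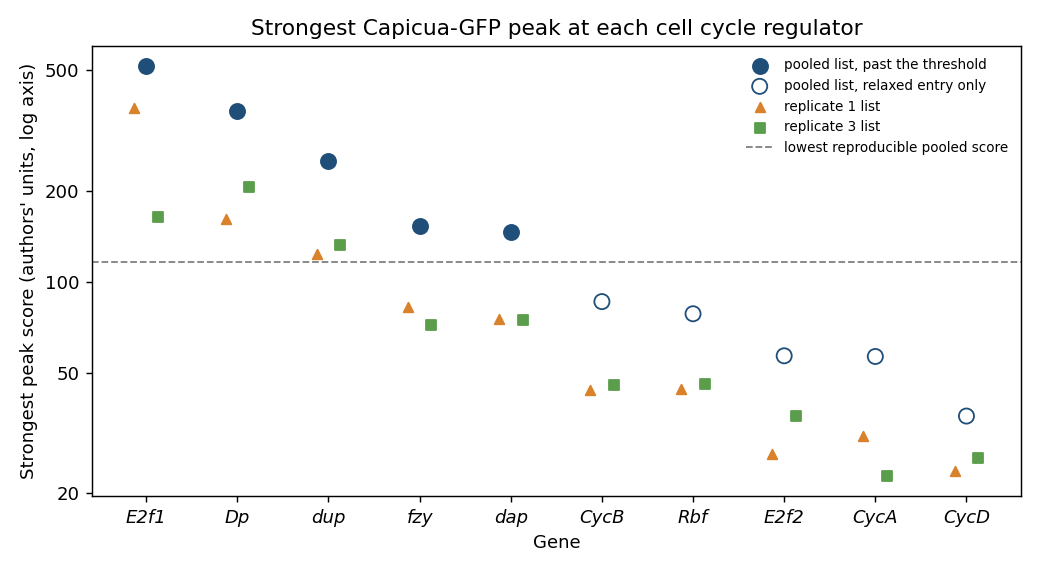
Strongest peak score at each of the 10 genes (log axis, authors' score with no unit) in the pooled list (circles, open where the entry is only in the relaxed list), replicate 1 (triangles) and replicate 3 (squares), with a dashed line at the lowest reproducible pooled score. The 5 bound genes have pooled scores of 146 to 516 and the other 5 genes scores of 36.0 to 86.0, and the replicates are farthest apart at E2f1.

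E2f1, the activating E2F that drives entry into S phase, had the most summits and, in the pooled list and in replicate 1, the strongest one of the 10 genes. In replicate 3 the strongest was that of Dp, at 205 against 164. The gene (FBgn0011766) lies on the minus strand of 3R from 21620304 to 21660871, spans 40568 bp and has 5 annotated starts. It held 6 summits, a number that 4.29% of bound genes of any length reach or pass, and their median span was 3436.5 bp. Its strongest summit, at 21633027 in a peak from 21632540 to 21633280, lay in a 5′ UTR, 46 bp after the nearest start of E2f1. It scored 516 in the pooled list, rank 399 of 7152, and 92.4% of bound genes had a lower strongest score. The same site scored 374 in replicate 1 and 164 in replicate 3, a mean of 269 ± 149 (SD, n = 2). Replicate 1 was thus 2.28 times replicate 3, a log2 ratio of 1.19, and 0.913% of all reproducible peaks had a higher ratio. The rank of E2f1 is therefore uncertain: its best peak was number 146 in the list of replicate 1 and number 1314 in that of replicate 3. Where replicate peaks had to overlap the pooled peak by 50% both ways, this summit had no match in replicate 3. That was not particular to E2f1: only 8 of the 14 summits were then matched in both replicates. The dap summit and the stronger dup summit were matched in neither. The start of an antisense RNA, asRNA:CR46055, lies 322 bp from this summit, and binding to one cannot be told from binding to the other.

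The other 5 summits of E2f1 were weaker, with 3 in introns, 1 in a 5′ UTR and 1 at its first promoter. The summit at 21630609, in an intron 2084 bp after a start, scored 228 in the pooled list, 161 in replicate 1 and 83.0 in replicate 3, or 40.5 in replicate 3 under the 50% overlap. The intronic summit at 21629923 scored 213, with 98.8 and 122 in the replicates. Here replicate 3 was the higher, so the excess of replicate 1 at the strongest site was not shared by every site in the gene. At the start farthest upstream, a summit at 21660918 lay 47 bp before the start and scored 139, with 53.5 in replicate 1 and 94.5 in replicate 3. The 2 weakest summits, at 21626736 in a 5′ UTR and at 21633756 in an intron 683 bp before a start, scored 120 and 119. Both stood just above the lowest score of the reproducible list.

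Sequences are shown for 3 sites of E2f1, from the plus strand of dm6 as in the RefSeq genome, to set the strongest site beside the first promoter and beside a weaker site that holds a Capicua motif. The strongest site is cut to 30 bases around the summit, since it lies in a 5′ UTR, and its capitals mark the repeat CACACACA on the minus strand. In the promoter sequence, capitals mark AACAGCTG on the minus strand, an E-box. In the third, capitals mark TGAATGGA, one of the octamers to which Capicua is known to bind.
E2f1 strongest summit, chr3R:21633013-21633042: caTGTGTGTGggggcggcagcggcaacagc
E2f1 first promoter, chr3R:21660872-21661018: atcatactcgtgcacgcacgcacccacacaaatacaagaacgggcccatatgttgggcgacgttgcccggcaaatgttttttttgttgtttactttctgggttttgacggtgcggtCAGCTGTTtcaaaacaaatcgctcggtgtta
E2f1 relaxed intronic site, chr3R:21627968-21628168: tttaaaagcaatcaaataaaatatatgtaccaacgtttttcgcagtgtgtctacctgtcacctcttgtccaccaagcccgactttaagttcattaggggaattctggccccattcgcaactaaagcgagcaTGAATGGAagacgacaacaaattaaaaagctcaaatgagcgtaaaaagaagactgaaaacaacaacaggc
The third site is not in the reproducible list. Its summit, at 21628068, scored 112, rank 7495, which is 96.6% of the lowest reproducible score, with 88.0 in replicate 1 and 46.4 in replicate 3. The octamer lies 34 bp from that summit. A further relaxed entry in an E2f1 intron, at 21651641 with a score of 55.7, also holds TGAATGGA, 52 bp from its summit.

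E2f2 and Rbf, which both act to repress E2F targets, had relaxed entries only. The E2f2 gene (FBgn0024371) lies on the minus strand of 2L from 21154293 to 21156749. Its best entry lay 40 bp before an inner start and scored 56.9 in the pooled list, with 26.9 in replicate 1 and 36.0 in replicate 3. Another entry, of 50.7, lay in the 5′ UTR of the neighbour Mpp6. Rbf (FBgn0015799) lies on the minus strand of X from 797090 to 801479. Its single entry, 240 bp before its start in the 3′ UTR of CG13359, scored 78.4 in the pooled list, 44.2 in replicate 1 and 45.9 in replicate 3. Reproducible summits lay near both genes but outside the rule. One of score 182 lay 252 bp past the 3′ end of Rbf, in the 3′ UTR of CG16989, and one of score 249 lay 1907 bp from the 5′ end of E2f2.

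Dp, the common partner of E2f1 and E2f2, had a summit at each of its 3 starts. The gene (FBgn0011763) lies on the plus strand of 2R from 13222433 to 13228202 and held 4 summits in 5770 bp, and 10.6% of bound genes held as many. The summit 37 bp before the first start scored 367 in the pooled list, rank 906, with 162 in replicate 1 and 205 in replicate 3 (184 ± 30.8, SD, n = 2). It lies in the 5′ UTR of Fsn, which is transcribed the other way from a start 58 bp off, so binding to either cannot be told apart. A summit 95 bp before the second start scored 293, with 157 in replicate 1 and 142 in replicate 3. By the nearest replicate summit within 100 bp, its replicate 3 score was 97.0. The summit 106 bp after the second start scored 163. In replicate 3 it had 97.0 by overlap, and no peak with a summit within 100 bp. The strongest peak of replicate 1 that overlaps it is the one of 157 just named, and the replicate 1 peak with its summit nearest to it scored 90.6. At the third start, the summit lay 4 bp away and scored 149, with 73.7 and 80.1 in the replicates. By overlap, binding at Dp was nearer to even between the replicates than at the strongest site of E2f1. The log2 ratio of replicate 1 to replicate 3 reached 0.69 at Dp, against 1.19 at that site. The noncoding neighbour lncRNA:CR43918 starts within 765 to 966 bp of the last 3 summits.

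Among the brakes and the replication factors, dap and dup were bound, each at a promoter. dap, the fly inhibitor of Cyclin E with Cdk2, of the p21 and p27 family, lies on the plus strand of 2R from 9712321 to 9716256 (FBgn0010316). Its 1 summit lay in the 5′ UTR, 112 bp after the start, and scored 146 in the pooled list, 75.2 in replicate 1 and 75.0 in replicate 3 (75.1 ± 0.115, SD, n = 2). By overlap of any length, this was the most even pair of values among the bound genes, at a strength below the series median. A relaxed entry 354 bp after the start takes the same replicate peaks. Under the 50% overlap, the dap summit had no match in either replicate. dup, the fly Cdt1, which loads the replicative helicase onto origins, lies on the minus strand of 2R from 15376619 to 15380988 (FBgn0000996). Its stronger summit, 118 bp before an inner start, scored 252 in the pooled list, 124 in replicate 1 and 132 in replicate 3. The weaker summit, 52 bp after the first start, scored 124. By overlap it takes the same replicate peaks as the stronger one, while the replicate 1 peak with its summit nearest to it scored 71.2. The stronger summit also lay 8 bp from the start of SRPK, a splicing factor kinase transcribed the other way, and binding at the 2 genes cannot be told apart. Counted only for the nearest start, dup keeps the weaker summit, of 124.

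**Figure D2:**
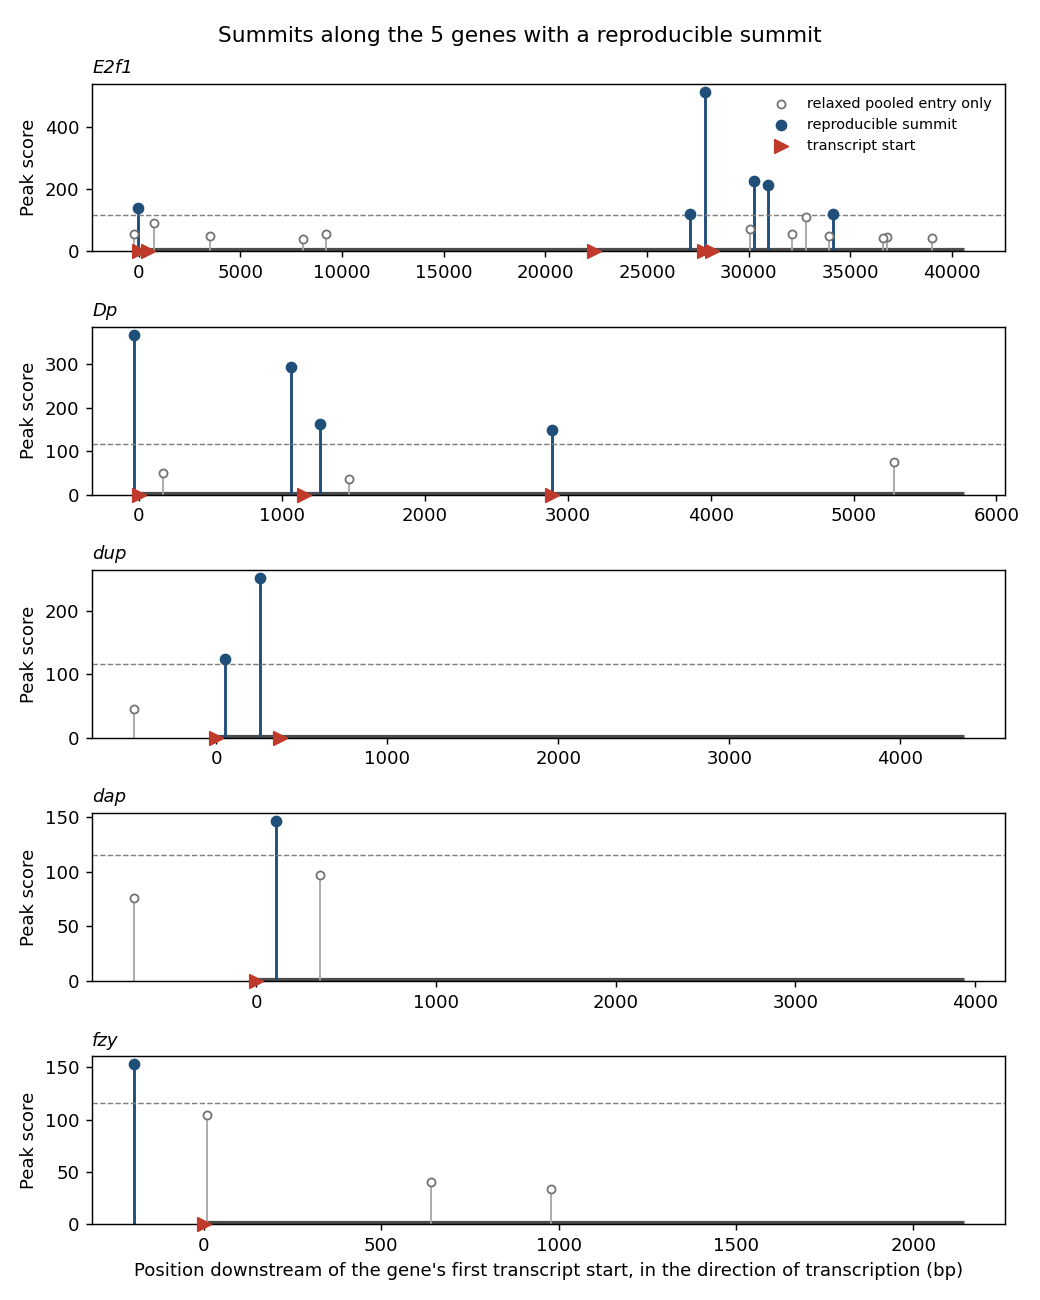
Summits at each bound gene by distance from its first start in the direction of transcription (bp) against the authors' pooled score. Filled points are reproducible summits, open points relaxed entries, triangles starts, the thick line the gene and the dashed line the lowest reproducible score. E2f1 has summits at its first start and in a cluster far downstream, with the strongest, of 516, among the latter. Those of Dp, dup, dap and fzy lie close to starts.

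fzy, the fly Cdc20, turns on the anaphase-promoting complex, the ligase that marks mitotic cyclins for destruction. The gene (FBgn0001086) lies on the plus strand of 2L from 16310956 to 16313097 and has 1 start. Its 1 reproducible summit, at 16310758, lay 198 bp before that start and scored 153 in the pooled list, 82.3 in replicate 1 and 71.8 in replicate 3 (77.1 ± 7.45, SD, n = 2). This summit lay nearer, at 32 bp, to the start of cni, which is transcribed the other way. Counted only for the nearest start, it belongs to cni and fzy is not bound. A relaxed entry 10 bp after the start of fzy scored 104, which is 89.9% of the lowest reproducible score. Part of the stretch between the 2 genes, up to 100 bp past the summit, is shown from the plus strand because it carries the one bound site of fzy, and it holds none of the motifs searched, so no letter is in capitals.
Between cni and fzy, chr2L:16310727-16310858: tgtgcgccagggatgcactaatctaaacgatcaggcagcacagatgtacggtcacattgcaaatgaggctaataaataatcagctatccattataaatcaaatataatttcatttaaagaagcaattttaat
The strongest peak of the whole series, of score 3067, with 1581 in replicate 1 and 1488 in replicate 3, lay 2014 bp past the 3′ end of fzy, in an intron of cact, and 4155 bp from the start of fzy. It is outside the rule and was not counted.

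None of the 3 cyclins had a reproducible summit, but each had a relaxed entry within 286 bp of a start. CycA, which acts with Cdk1 in G2 and mitosis, lies on the minus strand of 3L from 11826719 to 11833578 (FBgn0000404). Its entry, 98 bp before a start, scored 56.6 in the pooled list, 30.9 in replicate 1 and 22.8 in replicate 3. CycD, which acts with Cdk4 in growth and in the release of E2F from Rbf, lies on the minus strand of X from 15906822 to 15909676 (FBgn0010315). Its entry, 286 bp after a start, scored 36.0, the lowest of the 10 genes. It had an overlapping peak in replicate 3 only, of 26.1. The best replicate 1 entry of the gene, of 23.6, did not overlap it. The CycA promoter is shown from the plus strand to set an unbound member beside the bound ones, and its capitals mark TATCGATA, the core of the DNA replication-related element bound by the factor Dref, which lies 11 to 4 bp before a start.
CycA promoter, chr3L:11833579-11833776: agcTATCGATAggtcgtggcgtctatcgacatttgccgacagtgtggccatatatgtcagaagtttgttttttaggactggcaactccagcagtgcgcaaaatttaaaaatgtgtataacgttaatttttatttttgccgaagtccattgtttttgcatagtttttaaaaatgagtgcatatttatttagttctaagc

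CycB, the other mitotic cyclin, had the strongest of these entries. The gene (FBgn0000405) lies on the minus strand of 2R from 22803521 to 22806948. Its entry, 119 bp before a start, scored 86.0 in the pooled list, rank 10325, with 44.0 in replicate 1 and 45.6 in replicate 3. The 2 replicates were close, at a level under the list of reproducible peaks. For scale, the peak of rank 7152 scored 59.9 in the list of replicate 1 and 62.2 in that of replicate 3. The best replicate score at an unbound gene was 45.9, at Rbf, and the lowest at a bound gene was 71.8, at fzy.

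All 14 summits had an overlapping peak in both replicate lists, with some peaks shared by neighbouring summits of dup and of Dp. The score of replicate 1 was the higher at 7 of 14, and the median log2 ratio of replicate 1 to replicate 3 was -0.05, beside -0.09 over all 7122 reproducible peaks matched in both. For 12 of 14 the ratio lay within the middle 90% of all peaks, from -0.93 to 0.72. The other 2 are the strongest summits of E2f1, at log2 ratios of 1.19 and 0.96. The scores were not stated to be scaled for depth, so a ratio is read against all peaks and not against 1.

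**Figure D3:**
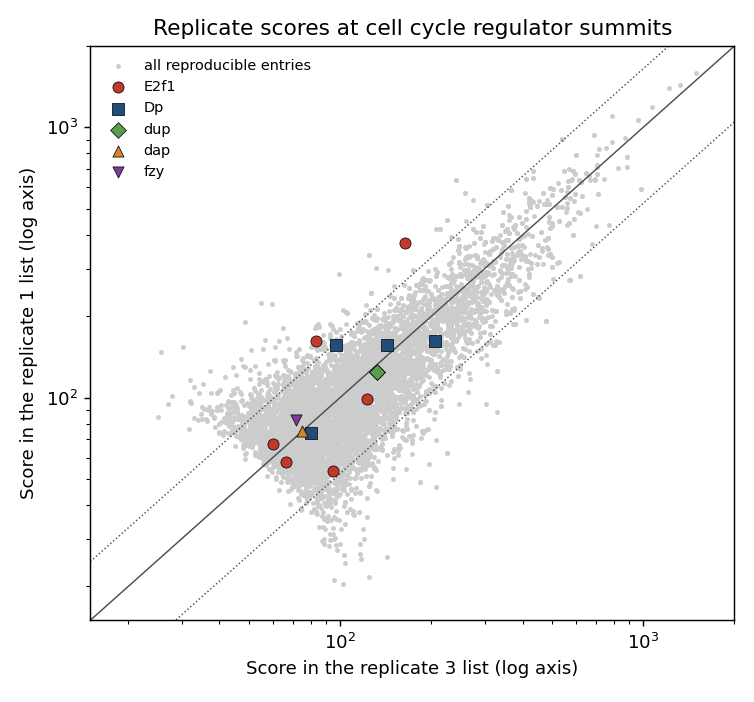
Score in replicate 1 against score in replicate 3 at the reproducible summits (both axes log, authors' score), over all matched peaks in grey, with a solid line of equal scores and dotted lines around the middle 90% of ratios. The strongest 2 summits of E2f1 lie above the band of the middle 90% of ratios (log2 1.19 and 0.96), and 12 of 14 lie within it.

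The threshold of the reproducible list runs close to several of these sites. The weakest summits inside it scored 119 and 120 at E2f1 and 124 at dup. The strongest entries outside it scored 112 at E2f1, 104 at fzy and 97.6 at dap. All 3 of those genes are bound through another summit, so no gene of the set changes sides on these entries. Of the unbound genes, CycB came nearest, at 74.2% of the lowest reproducible score.

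The Capicua octamers TGAATGAA and TGAATGGA, searched on both strands, were in no window of 100 bp on either side of the 14 summits. A count of 0 of 14 allows a share of up to 21.4%, counting error only, and the share over all 7152 summits was 5.23%, or 374 summits, so a difference was not detectable with this number of summits. E2f1 holds 6 octamers in the gene and 1000 bp around its ends, and the nearest lies 1367 bp from a reproducible summit. One octamer in Dp lies 277 bp from a reproducible summit and 70 bp from the summit of a relaxed entry, of score 36.4. One in fzy lies 2962 bp from a reproducible summit. CycA has 1, and the other 6 genes have none. In the window from 250 bp before to 50 bp after a start, no start of the 10 genes holds an octamer, beside 4.09% of 19607 starts of all genes.

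Other motifs were searched as exact letters on both strands in the same windows. The E2F sites TTTCCCGC, TTTGGCGC and TTTCGCGC were at 0 of 14 summits, beside 3.50% of all summits. In the start windows, TTTGGCGC, which 2.35% of all starts hold, lies 22 to 15 bp before the inner start of dup and 108 to 101 bp before a start of CycB. One of these genes is bound and the other is not. The E-box AACAGCTG was at 3 of 14 summits, or 21.4%, at the first start of E2f1 and at a summit each of Dp and dup, beside 4.80% of all summits. Of the start windows, which are longer, 7.26% hold it over all genes, and 10 of the 14 summits lay within 200 bp of a start. The repeat CACACACA was also at 3 of 14, beside 10.6%, at the strongest summit of E2f1 and 2 summits of Dp. GAGAGAG was at 2 of 14, in Dp and dap, beside 9.27%. TATCGATA, CTGATAAG and CACGTG were at 0 of 14, beside 2.71%, 4.78% and 4.10%. TATCGATA, found at the start of CycA, is in 7.98% of the start windows of all genes. These are matches of letters in a small number of windows, with no test.

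To place the 10 genes among the machinery around them, 95 cell cycle genes were counted in 6 lists by function, the 10 included. Of the 85 others, 24 were bound, or 28.2%, near the background of 32.8%, and their best scores had a median of 155. The list with the largest bound share was that of E2F, Rb and the dREAM complex, which keeps E2F targets silent, with 7 of 11 bound, or 63.6%. Beside E2f1 and Dp these were lin-52 at 392, Caf1-55 at 153, Rbf2 at 146, mip130 at 135 and mip120 at 126, and Myb and mip40 were not bound. For lin-52, Caf1-55, Rbf2 and mip130 the strongest summit lay nearer to the start of another gene, namely CG15771, CG31344, CG32856 and Rbcn-3B. Binding to these neighbours cannot be told apart from binding to the listed genes. The first place of this list rests in part on these summits, and the separate lists were not recounted by nearest start.

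Cyclins and their kinases were bound in 2 of 14 cases, or 14.3%, below the background. The 2 were CycG, at 409 with 212 ± 15.5 (SD, n = 2) in the replicates, and Cdk4, at 155, both in introns, the latter nearer to the start of RpLP2. CycE, the cyclin of S phase entry, and stg, the Cdc25 phosphatase of mitotic entry, had no reproducible summit. Inhibitors, Cdc25 and Wee kinases were bound in 3 of 7 cases, or 42.9%, too few genes to set apart from the background of 32.8%. Beside dap these were trbl, which promotes the loss of the Cdc25 phosphatases, at 253 with a summit 1 bp from its start, and Wee1 at 146.

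Origin licensing and replication genes were bound in 5 of 21 cases, or 23.8%. Beside dup these were Cdc7 at 285 and chif at 248, the kinase that fires origins and its partner, dpa at 219 and Orc6 at 126. Bound were 1 of 6 Mcm helicase genes and 1 of 6 Orc genes, too few genes to set apart from the background of 32.8%. Of the anaphase-promoting and SCF ligase genes, 7 of 20 were bound, or 35.0%, near the background, with SkpA at 344, slmb at 215 and APC7 at 185, each nearer to the start of another gene. Mitosis and checkpoint genes were bound in 5 of 22 cases, or 22.7%, with tefu at 289, tws at 255 and Mps1 at 155. The summits of tefu and Mps1 lay nearer to the starts of other genes, Hsc70-4 and CG7523. Outside the 10 genes, the best summit lay nearer to the start of another gene in 11 of the 24 bound.

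**Figure D4:**
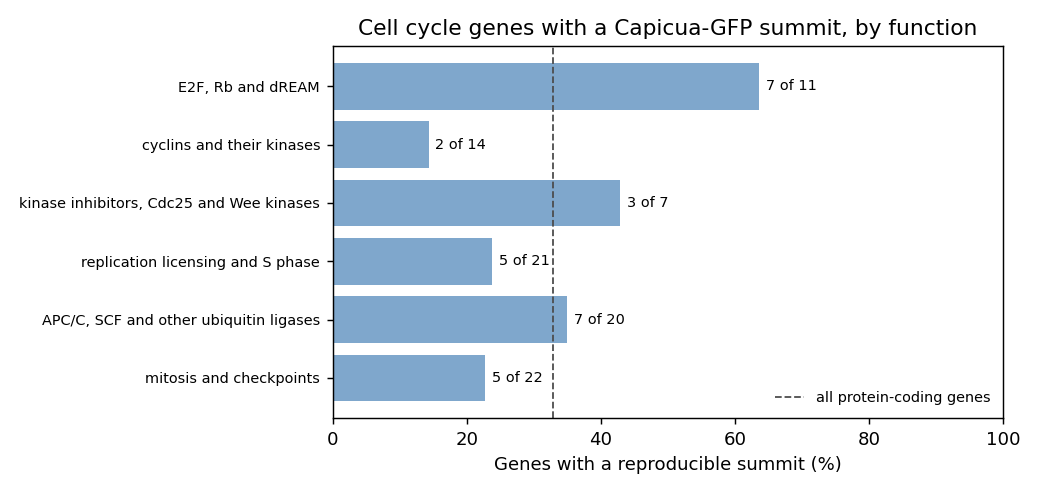
Share of each of 6 lists of cell cycle genes with a reproducible summit (percent, bars from 0), with the count beside each bar and a line at the background of 32.8% of all genes. The E2F, Rb and dREAM list stands highest, with 7 of 11, and cyclins and kinases lowest, with 2 of 14. Several of the summits counted for the E2F, Rb and dREAM list lie nearer to the starts of other genes.

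The distance to the next reproducible summit outside the rule differed widely among the 10 genes. At 252 bp past Rbf, 672 bp past Dp, where a summit of 266 lay in an intron of Pex13, and 1027 bp past E2f1, where a summit of 331 lay in the 5′ UTR of InR, bound neighbours were close. Around CycB the next summit lay 4462 bp off and scored 122, around CycA it lay 6789 bp off and scored 420, and around CycD it lay 20033 bp off, in an intron of tay. For dap and dup the next summit was 26542 bp and 53655 bp away, though the stronger summit of dup itself lay at the start of SRPK.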

How the data were processed

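Chromatin was sheared by sonication to 200 to 800 bp, per the labels. Per the authors' accompanying file list, they deposited relaxed peak lists for each replicate and for both pooled, and a reproducible list cut by the irreproducible discovery rate. Aligner, peak caller and threshold were not given in the sources used here. Peak strength is the authors' deposited score, with no stated scaling. The deposited −log10 of the q-value was at its ceiling of 4.51 for every reproducible peak and was not used to rank. No read counts were given, so the depth behind each value is unknown.

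Genes and starts came from the Ensembl annotation on dm6 coordinates, and sequences from the RefSeq genome of the same build. A replicate score of a site is that of the strongest overlapping peak in its list. In the order of the 10 genes, it is that of the gene's strongest entry in the list of the replicate. Of 7152 peaks, 3 had a summit outside their interval. Lists were counted with Python 3.11.15, numpy 2.4.6 and pandas 2.3.3, checked on simulated peaks. The 95 genes were matched by symbol, 2 of them through a synonym. Other list genes were named by the strongest score, at most 3 in each list, and those at 135 or below, CycE, stg, Myb and mip40 were named after their values were seen. The 10 genes and the lists were chosen with earlier results of these data known.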

Additional observations from a re-analysis of the deposited data

How the results depend on the processing

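With the stronger 50% of the reproducible list, 3 of the 10 genes stayed bound (E2f1, Dp and dup, 18.6% of all genes), with 6 summits, and 11 of the 85 other genes did. With the pooled relaxed list the counts were 10, 42 and 80, at a background of 69.3%. Counting to 5000 bp from a start gave 7 genes, with E2f2 and Rbf added, and 47 other genes, at a background of 51.2%. Counting a summit only for the gene with the nearest start, an alternative chosen after seeing the data, gave 4 genes, without fzy, and 13 other genes, at 24.9%. At 500 bp, with starts alone, with peak intervals and with merged regions, the count stayed at 5. The backgrounds were 30.2%, 30.5%, 34.3% and 32.7% of all genes in that order. To leave out a replicate, the 7152 strongest entries of the other replicate's relaxed list were taken, with no check of reproducibility. Doing so for each replicate in turn gave 5 and 5 genes, the same ones, 13 to 14 summits and 26 to 27 other genes. The background was 32.3% of all genes without replicate 1 and 33.4% without replicate 3. Octamers numbered 0 to 1, the 1 being at the relaxed E2f1 site when replicate 3 was left out. Under 50% reciprocal overlap, 7 of the 8 matched summits lay in the middle 90% of replicate ratios, and 8 of 10 by nearest summit. The exception under 50% overlap was the second E2f1 summit, whose score in replicate 3 went from 83.0 to 40.5 beside 161 in replicate 1. The strongest E2f1 summit was unmatched in replicate 3, and the dap summit and the stronger dup summit were unmatched in both replicates. Without replicate 1, Dp had the strongest summit, at 205, and E2f1 came next, at 164. No paired analysis was possible because there is 1 group. Without read counts, what depth limits cannot be stated.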
